A study of Mus musculus with 13 samples.

Results

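Keratins are the intermediate filament proteins of epithelial cells and assemble as pairs of a type I and a type II chain. The simple keratins Krt7 and Krt8 (type II) and Krt18 and Krt19 (type I) belong to single-layered epithelium, including that of the alveoli and airways. Krt5, Krt14, Krt15 and Krt17 belong to the basal cells of stratified and pseudostratified epithelium. In injured mouse lung, alveolar type 2 cells on the way to type 1 cells pass through a transitional state that is known for high Krt8, together with stress-related genes such as Sfn, which encodes the cell cycle protein 14-3-3 sigma, and Clu, which encodes the secreted chaperone clusterin.

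These 10 genes were read as rows of the deposited count table by their symbols, and all 10 were found among its 54513 genes. All 10 also passed the filter on low counts, as did 20468 genes in all. The tissue was formalin-fixed, paraffin-embedded lung of male C57Bl/6 mice aged 7 to 8 weeks, collected on day 21, and RNA came from a section 10 µm thick. Bleomycin, a DNA-damaging drug that causes lung fibrosis in mice, had been given to the animals of 4 libraries in batch 1 (bleomycin 5 to 8) and 4 libraries in batch 2 (bleomycin 1 to 4). Saline had been given to those of 5 libraries (saline 1 to 5), all in batch 1. The labels used here state neither dose nor route. Whether the libraries come from different animals is not stated either, and the p-values then cover only the spread among libraries, which may be technical. Batch and treatment cannot be told apart when batch 2 bleomycin is set against saline.

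The library bleomycin 8 is titled as a control, while its treatment label and library name say bleomycin. It was kept as bleomycin. Its Col1a1, the main fibrillar collagen gene, was 3982 CPM (counts scaled to the library total by trimmed mean of M values), against 215 to 324 CPM in the saline libraries. Total counts were 21727502 to 28885129 in batch 1 bleomycin, 6337147 to 12982422 in batch 2 bleomycin, and the saline libraries held 9527580 to 26043735. Alveolar markers were present throughout. The summed level of 10 alveolar type 2 markers was 4197 to 7752 CPM in batch 1 bleomycin, 5674 to 11932 CPM in batch 2 bleomycin and 8244 to 10596 CPM in saline.

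Among the simple keratins, Krt8 and Krt18 rose in batch 1 bleomycin lungs, and all 4 rose in batch 2 bleomycin lungs set against saline. No basal keratin was called lower. Krt5, Krt14 and Krt15 had log2 changes of -1.77, -0.42 and -2.27 in batch 1, with SEs of 0.90 to 1.14. With SEs that wide, large falls could go uncalled. The basal keratin Krt17, which was under 2 CPM in every saline library, rose. Clu rose in both batches, with log2 changes of 1.70 and 1.75. In all, 4 members rose and 0 fell in batch 1 bleomycin against saline (edgeR quasi-likelihood test, Benjamini-Hochberg adjusted p under 0.05), beside 17.5% of all tested genes higher and 13.4% lower. At an unadjusted p under 0.05, 5 members were higher and 0 lower, and DESeq2 and limma-voom also called 0 lower. In batch 2 bleomycin against saline 6 members rose and 0 fell, beside 15.7% of all tested genes higher and 13.2% lower; 0 were lower at an unadjusted p under 0.05 or by either other tool. Both comparisons use the same saline libraries. With bleomycin 8 put in saline, as its title has it, 0 members were called in batch 1.

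**Figure D1:**
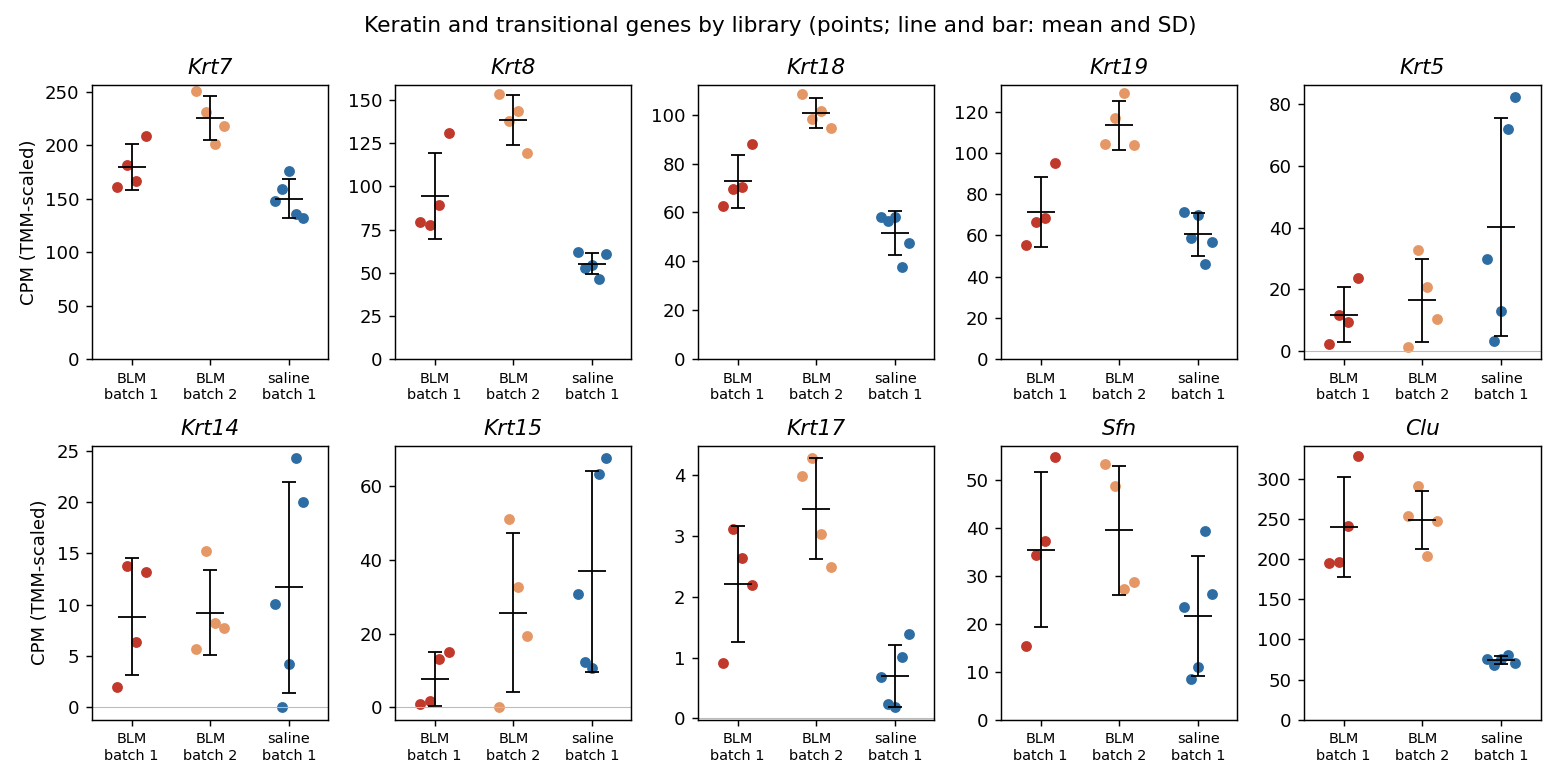
Level of each of the 10 genes in every library (y axis, TMM-scaled CPM; linear axis from 0, a separate scale per gene), for bleomycin batch 1 (4 libraries), bleomycin batch 2 (4) and saline (5) from left to right. Points are libraries, and the line and bar are the mean and SD. The saline libraries of Clu lie between 68.4 and 80.8 CPM, below every bleomycin library, whereas Krt5, Krt14 and Krt15 overlap in all groups.

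Start regions from RefSeq (GRCm38.p6) were found for 6 of the 10 members, each covering 250 bases before to 50 bases after the annotated start. Those of Krt8 and Krt18, the simple keratin pair that rose in both batches, are shown with that of Krt5, a basal keratin that was not called. The files use build mm39, so these windows serve for sequence only. Capitals mark matches on either strand to TATAAA, the letters searched for the core promoter box of that name, to GGGCGG, those searched for Sp1, or to GCCNNNGGC, those searched for the factor AP-2.
Krt8, chr15:102004293-102004592, minus strand: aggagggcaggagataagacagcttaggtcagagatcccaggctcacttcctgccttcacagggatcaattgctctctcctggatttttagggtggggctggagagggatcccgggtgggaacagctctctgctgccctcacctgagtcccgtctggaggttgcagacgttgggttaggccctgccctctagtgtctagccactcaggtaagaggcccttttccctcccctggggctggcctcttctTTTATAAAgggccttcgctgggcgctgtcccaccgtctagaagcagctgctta
Krt18, chr15:102027966-102028265, plus strand: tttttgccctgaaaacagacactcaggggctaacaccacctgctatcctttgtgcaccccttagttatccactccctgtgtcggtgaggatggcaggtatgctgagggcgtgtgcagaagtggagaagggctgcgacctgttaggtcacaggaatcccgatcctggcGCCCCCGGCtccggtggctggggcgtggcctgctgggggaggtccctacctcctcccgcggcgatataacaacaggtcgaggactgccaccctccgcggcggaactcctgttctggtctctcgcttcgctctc
Krt5, chr15:101712856-101713155, minus strand: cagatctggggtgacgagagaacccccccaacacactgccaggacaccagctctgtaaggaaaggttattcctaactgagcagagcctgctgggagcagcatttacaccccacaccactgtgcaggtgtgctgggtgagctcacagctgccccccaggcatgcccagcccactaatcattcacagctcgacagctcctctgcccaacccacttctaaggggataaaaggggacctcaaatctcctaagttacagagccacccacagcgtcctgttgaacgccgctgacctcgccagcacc
The capitals of Krt8 are overlapping TATAAA matches on both strands. They cover bases 248 to 255 of the window, across the annotated start, which follows base 250. Of 32851 start regions of this length, 13.6% hold TATAAA. Whether the matches act as a core promoter box was not tested. The capitals of Krt18 are 1 position that matches GCCNNNGGC on both strands, a pattern in 16.6% of start regions. Krt5 had no match to any of these 3 motifs, and GGGCGG, in 35.7% of start regions, was in none of the windows shown. Another 5 motifs were searched. The E box, searched as CANNTG and held by 72.3% of start regions, was at 3 positions in Krt8, 1 in Krt18 and 2 in Krt5. The AP-1 letters TGANTCA, held by 7.81% of start regions, had no match in these 3 windows. The same was true of the C/EBP letters TTGCNNAAT, held by 2.4%. The TEAD letters GGAATG, held by 14.7%, and the ETS letters CCGGAA, held by 14.9%, had none either.

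Krt8, the type II keratin used as the marker of the transitional state, had 79.6, 77.8, 89.4 and 131 CPM in bleomycin 5 to 8. It had 153, 138, 144 and 119 CPM in bleomycin 1 to 4, against 61.8, 52.8, 54.2, 46.6 and 60.8 CPM in saline 1 to 5. Every bleomycin library lay above every saline library, and bleomycin 8 was the highest of batch 1. The log2 change was 0.77 (SE 0.14) in batch 1 bleomycin against saline, with an edgeR adjusted p of 0.000696, and 1.33 (SE 0.14) in batch 2 bleomycin against saline, adjusted p = 1e-05. By sequence, 26.9% of the 50-base words in Krt8 transcripts are shared with the pseudogene Krt8-ps, so some reads could be assigned to either.

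Krt18, the type I partner of Krt8, had 62.5, 69.7, 70.5 and 88.1 CPM in bleomycin 5 to 8. It had 109, 98.2, 101 and 94.5 CPM in bleomycin 1 to 4, against 58.0, 56.6, 58.2, 37.6 and 47.3 CPM in saline 1 to 5. None of the groups overlapped, and batch 2 was the highest. The log2 change was 0.50 (SE 0.13, edgeR adjusted p = 0.00769) in batch 1 and 0.97 (SE 0.13, adjusted p = 5.96e-05) in batch 2, each against saline. In the section as a whole, more cells of a type and more RNA per cell cannot be told apart.

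Krt7, a type II keratin of glandular and simple ducts, had 161, 182, 166 and 208 CPM in bleomycin 5 to 8. It had 250, 231, 201 and 218 CPM in bleomycin 1 to 4, against 148, 159, 175, 136 and 132 CPM in saline 1 to 5. Batch 1 bleomycin overlapped saline, because saline 3 lay above bleomycin 5 and bleomycin 7, while batch 2 lay above saline throughout. The log2 change against saline was 0.26 (SE 0.11, edgeR adjusted p = 0.0747) in batch 1 and 0.59 (SE 0.11, adjusted p = 0.000709) in batch 2. In batch 1, Krt7 passed the threshold without bleomycin 5 (adjusted p = 0.0439) or without saline 3 (adjusted p = 0.0379). It passed in no other fit with 1 library left out, and over these fits its change was 0.145 to 0.313.

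Krt19, the smallest type I keratin, had 55.1, 66.5, 68.2 and 95.1 CPM in bleomycin 5 to 8. It had 104, 117, 129 and 104 CPM in bleomycin 1 to 4, against 71.1, 58.6, 69.8, 46.0 and 56.6 CPM in saline 1 to 5. Batch 1 bleomycin and saline overlapped, and batch 2 lay above both. The log2 change against saline was 0.24 (SE 0.15, edgeR adjusted p = 0.253) in batch 1 and 0.91 (SE 0.15, adjusted p = 0.000427) in batch 2. Without bleomycin 8 the batch 1 change was 0.03.

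Libraries were also compared without a model. Every library of batch 1 bleomycin was higher than every saline library for 3 members (Krt8, Krt18 and Clu), beside 14.0% of all tested genes. For batch 2 bleomycin against saline this held for 6 members (the 4 simple keratins, Krt17 and Clu), beside 15.3%. Summed over Krt7, Krt8, Krt18 and Krt19, the level was 358 to 522 CPM in batch 1 bleomycin, 536 to 617 CPM in batch 2 bleomycin and 266 to 358 CPM in saline.

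**Figure D2:**
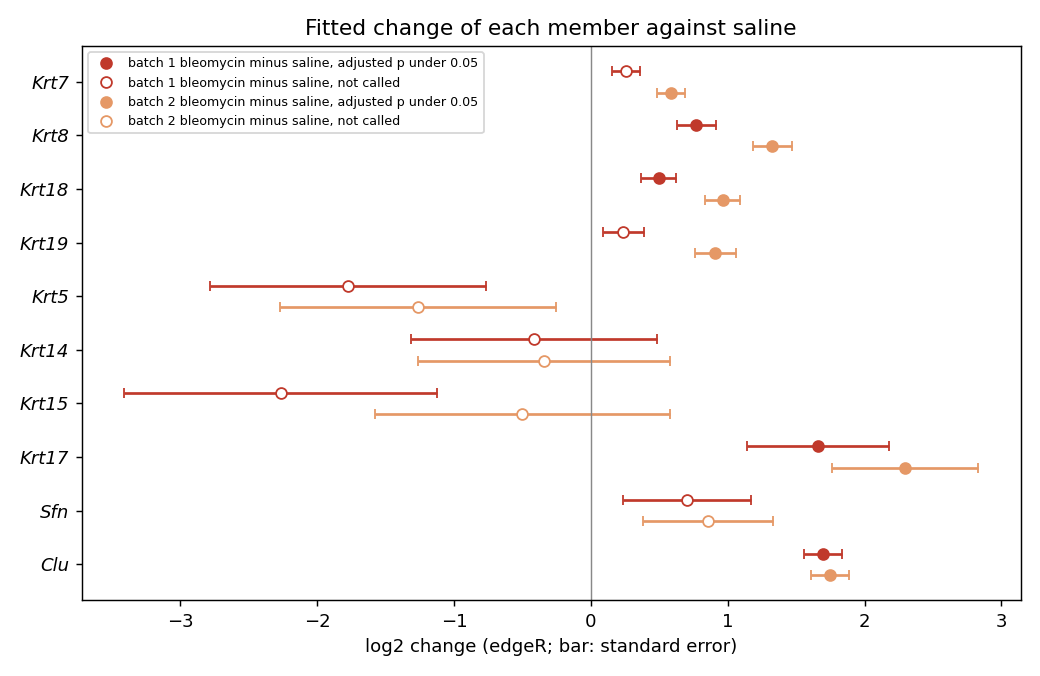
Fitted log2 change of each gene (x axis) for batch 1 bleomycin minus saline (red) and batch 2 bleomycin minus saline (orange). Bars are standard errors, and filled points have an adjusted p under 0.05. The simple keratins and Clu have SEs of 0.11 to 0.15, and Krt5, Krt14 and Krt15 have SEs of 0.90 to 1.14.

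Between the bleomycin batches, 1 of the 4 simple keratins was called. Krt19 was higher in batch 2 than in batch 1 bleomycin, with a log2 change of 0.67 (SE 0.16, edgeR adjusted p = 0.0452), and was the 1 member called. Among all tested genes 0.547% were higher and 1.13% lower in this comparison, and 0 members were lower, also at an unadjusted p under 0.05 and by DESeq2 and limma-voom. Krt8 (0.55, adjusted p = 0.0745), Krt18 (0.47, adjusted p = 0.0957) and Krt7 (0.33, adjusted p = 0.161) did not pass. Every batch 2 library was above every batch 1 bleomycin library for 2 members, Krt18 and Krt19, beside 2.78% of all tested genes. The Krt19 call was lost without any of bleomycin 2 to 7 and without saline 3 or saline 5, with adjusted p-values of up to 0.146. Without bleomycin 8, all 4 simple keratins were called. The general epithelial genes Epcam, a surface adhesion protein, and St14, a membrane protease, were also higher in batch 2, with log2 changes of 0.53 (adjusted p = 0.047) and 0.58 (adjusted p = 0.0239). They were 2 of 18 pan-epithelial genes; the part of epithelial content in the keratin values was not tested.

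The proportions within the simple set differed as well. The Krt8 count was 1.17 to 1.44 times the Krt19 count in batch 1 bleomycin, 1.12 to 1.47 times in batch 2 bleomycin and 0.776 to 1.08 times in saline. The ranges of each bleomycin group and saline did not overlap. Krt8 over Krt18 was 1.12 to 1.48, 1.26 to 1.418 and 0.930 to 1.29 in the same groups, and these overlapped. These ratios are within a library and are given as a description.

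Krt5, the type II keratin of basal cells, had 2.22, 11.5, 9.37 and 23.7 CPM in bleomycin 5 to 8. It had 1.33, 32.8, 20.8 and 10.4 CPM in bleomycin 1 to 4, against 29.9, 3.02, 12.9, 72.0 and 82.3 CPM in saline 1 to 5. The groups overlapped, and saline 4 and saline 5 were the highest of the 13 libraries. The log2 change of -1.77 (SE 1.01) in batch 1 against saline had an edgeR adjusted p of 0.214, and that of -1.26 (SE 1.01) in batch 2 an adjusted p of 0.389.

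Krt14, the type I partner of Krt5, had 1.94, 13.8, 6.34 and 13.2 CPM in bleomycin 5 to 8. It had 5.65, 15.2, 8.20 and 7.76 CPM in bleomycin 1 to 4, against 10.1, 0, 4.20, 24.3 and 20.004 CPM in saline 1 to 5. A count of 0 in saline 2 allows a level of up to 0.348 CPM if counts are independent (3 counts, counting error only). Both mates of a read pair appear to be counted, so the true limit is higher. The groups overlapped, and the log2 change against saline was -0.42 (SE 0.90, edgeR adjusted p = 0.766) in batch 1 and -0.34 (SE 0.92, adjusted p = 0.819) in batch 2. Krt14 transcripts share 13.9% of their 50-base words with Krt16 and Krt17.

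Krt15, a type I keratin of basal progenitors, had 0.824, 1.74, 13.1 and 15.1 CPM in bleomycin 5 to 8. It had 0, 51.1, 32.5 and 19.3 CPM in bleomycin 1 to 4, against 30.9, 12.2, 10.6, 63.4 and 67.7 CPM in saline 1 to 5. The count of 0 in bleomycin 1 allows up to 0.498 CPM if counts are independent, and more where both mates are counted. Again the groups overlapped, with log2 changes against saline of -2.27 (SE 1.14, edgeR adjusted p = 0.163) in batch 1 and -0.50 (SE 1.08, adjusted p = 0.772) in batch 2.

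Krt17, a type I keratin of basal and wound-edge epithelium, was the lowest of the 10 genes per length in every group. It had 0.906, 3.13, 2.64 and 2.19 CPM in bleomycin 5 to 8 and 3.99, 4.28, 3.04 and 2.49 CPM in bleomycin 1 to 4, against 0.682, 0.232, 0.182, 1.01 and 1.40 CPM in saline 1 to 5. The raw counts, not scaled for depth, ran from 2 in saline 2 to 90 in bleomycin 6. By CPM, saline 3 (0.182) was the lowest of the 13 libraries and bleomycin 2 (4.28) the highest. Only bleomycin 5 overlapped saline. The log2 change against saline was 1.66 (SE 0.52, edgeR adjusted p = 0.0231) in batch 1 and 2.30 (SE 0.53, adjusted p = 0.00435) in batch 2. The batch 1 call was lost without bleomycin 6 (adjusted p = 0.0729), without bleomycin 7 (0.056) and in a fit of batch 1 libraries only (0.0545).

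The spread within groups was wide for 3 of the basal keratins. The coefficient of variation within a group was 45.1% to 96.9% for Krt5, Krt14 and Krt15, and 5.96% to 26.2% for the 4 simple keratins. Krt17 had 43.0% in batch 1 bleomycin, 24.1% in batch 2 bleomycin and 73.8% in saline, so in batch 2 it lay within the range of the simple set. The mean log2 CPM of the simple set minus that of the basal set was 5.80, 4.01, 3.74 and 3.58 in bleomycin 5 to 8. It was 6.68, 2.91, 3.59 and 3.97 in bleomycin 1 to 4, against 3.07, 6.03, 4.43, 1.62 and 1.75 in saline 1 to 5. The groups overlapped throughout, and the difference of means, 0.90 between batch 1 bleomycin and saline, was below the pooled SD of 1.57. The median log2 change in batch 1 against saline was 0.38 over the simple set and -1.09 over the basal set, beside 0.03 over all tested genes. The call counts were 2 higher of 4 and 1 higher of 4, beside 17.5% of all tested genes higher.

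Keratins of squamous epithelium varied widely between libraries, beside the basal keratins. Krt4 and Krt13, the differentiation keratins of lining epithelium such as that of the oesophagus, summed to 0.0824, 90.5, 122 and 667 CPM in bleomycin 5 to 8. The sum was 0.664, 1534, 4.56 and 4.69 CPM in bleomycin 1 to 4, against 1219, 1.04, 439, 2745 and 2312 CPM in saline 1 to 5. The libraries lowest in Krt4 and Krt13 (bleomycin 5, bleomycin 1 and saline 2) were also the lowest in Krt5 and Krt14 of their groups. For Krt15 and Krt17 the lowest saline library was saline 3, and for Krt17 the lowest of batch 2 was bleomycin 4. The summed basal keratins were 64.6 and 40.0 CPM in bleomycin 3 and 4, which had little Krt4 and Krt13, against 54.2 CPM in bleomycin 8, which had 667 CPM of them. Over the whole list of 10 squamous markers the summed level was 4.28 to 765 CPM in batch 1 bleomycin, 8.14 to 1707 CPM in batch 2 bleomycin and 2.55 to 3315 CPM in saline. Of the 9 tested, 1 was called in batch 1 against saline, beside 17.5% of all tested genes higher and 13.4% lower. It was the cornified envelope gene Ivl, which was higher (mean 0.715 CPM in batch 1 bleomycin and 0.130 CPM in saline). That call was lost without any of bleomycin 1 to 5, 7 and 8 or saline 1 to 4, under both other filters on low counts and in a fit of batch 1 libraries only.

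With log2 of summed Krt4 and Krt13 as a covariate, chosen after these levels were seen, the batch 1 change of Krt14 was 0.86 (edgeR adjusted p = 0.368), opposite in sign to the value without it, and that of Krt5 was -0.59 (adjusted p = 0.521). The batch 1 change of Krt15 stayed below 0, at -2.85 to -1.16 over all alternatives, this covariate among them, and was never called. In batch 2 against saline Krt5, Krt14 and Krt15 were all above 0 with the covariate, opposite in sign to the values without it, and none was called. In batch 1 against saline Sfn was called with the covariate, with a log2 change of 1.10 (edgeR adjusted p = 0.0341). It was called in batch 2 against saline too, at 1.63 (adjusted p = 0.0123). Krt8 and Clu kept their batch 1 calls, at 0.82 and 1.78. None of the 10 members was called for the covariate itself, beside 0.65% of tested genes. The Krt5 slope was 0.36 per log2 unit (adjusted p = 0.0997). The simple keratins had slopes of 0.02 or less.

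**Figure D3:**
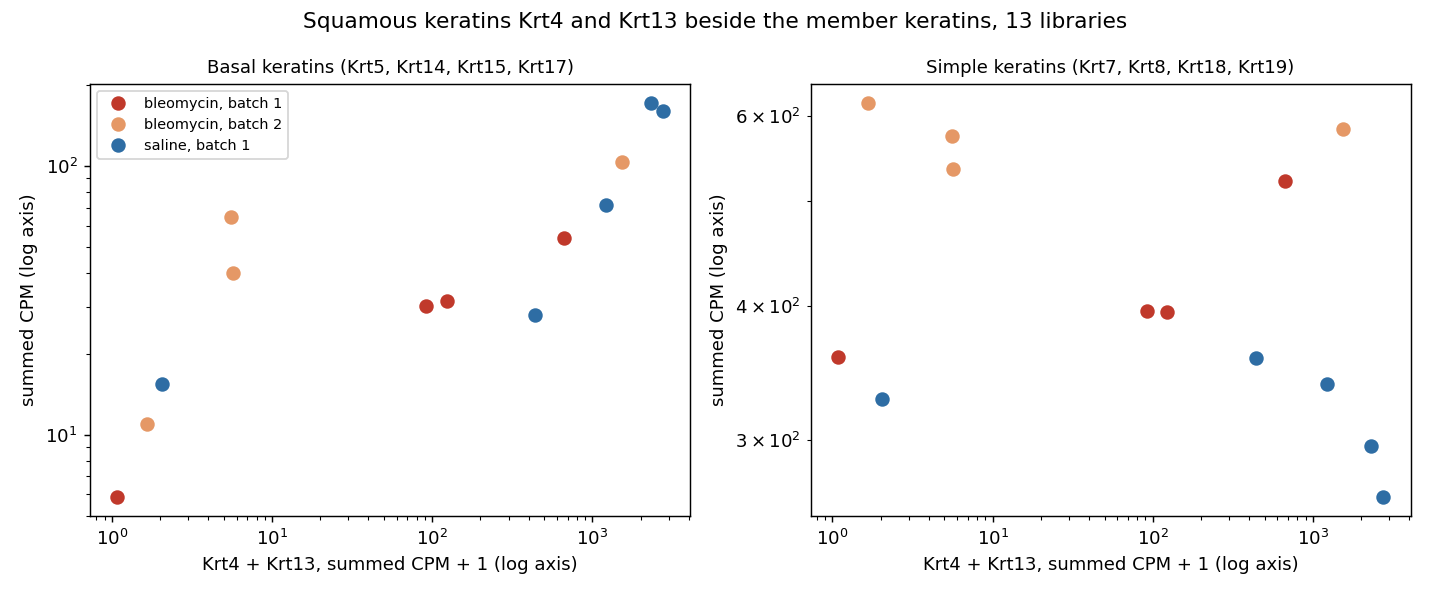
Summed CPM of the basal keratins (left) and of the simple keratins (right) against summed Krt4 and Krt13 CPM plus 1 in each of 13 libraries; all axes are log scales and colours give the groups. The basal sum is 5.89 CPM in the bleomycin library with the least Krt4 and Krt13 and 171 CPM in a saline library with 2312 CPM of them, while the simple sum is 358 CPM or more in every bleomycin library.

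Of the other basal cell markers, most were not called. Trp63, the basal cell transcription factor p63, averaged 7.65 CPM in batch 1 bleomycin, 7.07 CPM in batch 2 bleomycin and 10.0 CPM in saline, and its batch 1 change of -0.40 (SE 0.47) had an edgeR adjusted p of 0.564. Ngfr, a neurotrophin receptor on basal cells, changed by 0.80 (SE 0.47, adjusted p = 0.218). Of the 7 basal markers besides keratins that were tested, 1 rose in batch 1, the integrin subunit gene Itga6 (0.27, adjusted p = 0.0382), and 0 fell. Over all tested genes 17.5% were higher and 13.4% lower. The Itga6 call was lost without any of bleomycin 3, 5, 7 and 8 or saline 2 and 4. It was also lost with RLE size factors in place of TMM, with DESeq2 and in a fit of batch 1 libraries only. The same held with the Krt4 and Krt13 covariate and with bleomycin 8 put in saline. Thymic epithelium, which also uses basal keratins, had a summed marker level of 22.3 to 27.1 CPM in batch 1 bleomycin, 15.3 to 19.6 CPM in batch 2 bleomycin and 17.0 to 24.7 CPM in saline. Most of that sum was the chemokine gene Ccl25, at a mean of 21.3, 15.0 and 15.2 CPM in these groups, which was higher in batch 1 (0.49, edgeR adjusted p = 0.0111). Foxn1 and Psmb11, which define thymic epithelium, were under 0.6 CPM in every library. Tbata was lower (-1.28, adjusted p = 0.0373), a call lost without any of bleomycin 6 and 7 or saline 1, 2, 3 and 5.

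Clu, the chaperone and transitional state gene, had 195, 196, 241 and 328 CPM in bleomycin 5 to 8. It had 254, 291, 204 and 247 CPM in bleomycin 1 to 4, against 75.4, 68.4, 75.2, 80.8 and 71.0 CPM in saline 1 to 5. Every bleomycin library was above every saline library, and the batches overlapped. The log2 change against saline was 1.70 (SE 0.14) in batch 1, with an edgeR adjusted p of 1e-06, and 1.75 (SE 0.14) in batch 2, adjusted p = 7.98e-07. Between the bleomycin batches it was 0.05 (SE 0.15, adjusted p = 0.917). Clu is also expressed outside epithelium, and its source in the section was not tested.

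Sfn, 14-3-3 sigma, had 15.4, 34.4, 37.4 and 54.9 CPM in bleomycin 5 to 8. It had 53.3, 48.8, 27.4 and 28.7 CPM in bleomycin 1 to 4, against 23.6, 8.58, 10.9, 39.5 and 26.2 CPM in saline 1 to 5. All groups overlapped. The log2 change against saline was 0.70 (SE 0.47, edgeR adjusted p = 0.287) in batch 1 and 0.85 (SE 0.47, adjusted p = 0.21) in batch 2. Sfn is also expressed in squamous epithelium. The 2 saline libraries with the least Sfn had 1.04 and 439 CPM of summed Krt4 and Krt13, and bleomycin 5 was the lowest of batch 1 bleomycin in both. In batch 2 the library with the least Krt4 and Krt13, bleomycin 1 at 0.664 CPM, had the most Sfn. The slope of Sfn on the Krt4 and Krt13 covariate was not called (edgeR adjusted p = 0.426). The part of squamous epithelium in the Sfn values was not tested. By sequence, 15.0% of its 50-base words are shared with other genes.

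Other genes of the transitional state were higher as a list. Of 22 listed and tested, 15 rose and 0 fell in batch 1 bleomycin against saline (median log2 change 0.69 beside 0.03 over all genes), and 13 rose and 0 fell in batch 2 against saline. Over all tested genes the share higher was 17.5% in batch 1 and 15.7% in batch 2. The list was chosen with earlier results of these data known, so its counts are a description and not independent support. With bleomycin 8 put in saline, 2 of the 22 rose in batch 1. Cldn4, a tight junction claudin, had 8.73, 23.1, 14.6 and 15.3 CPM in bleomycin 5 to 8, against 4.86, 2.32, 2.92, 5.41 and 4.56 CPM in saline 1 to 5, with a log2 change of 1.93 (SE 0.30, edgeR adjusted p = 0.000223). These groups did not overlap. Itgb6, the subunit of an integrin that activates latent TGF-beta, changed by 1.01 (adjusted p = 0.00025), and Areg, an EGF receptor ligand, by 1.92 (adjusted p = 0.000156).

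Tnip3, an inhibitor of NF-kappaB signalling, had the largest log2 change of the list, 2.78 (SE 0.33, edgeR adjusted p = 2.1e-05). Plaur, the urokinase receptor, changed by 1.22 and Anxa1, an annexin, by 0.91. The cell cycle inhibitors Cdkn1a (0.53) and Cdkn2b (0.66) also rose in batch 1. Cdkn1a was not called in batch 2 against saline (0.11, adjusted p = 0.624). In all, 7 genes did not pass in batch 1, among them Hbegf (0.06), Mdm2 (0.05) and Sprr1a (-1.72). Many of these genes are also used by macrophages or mesenchymal cells, so the list does not mark epithelium alone.

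**Figure D4:**
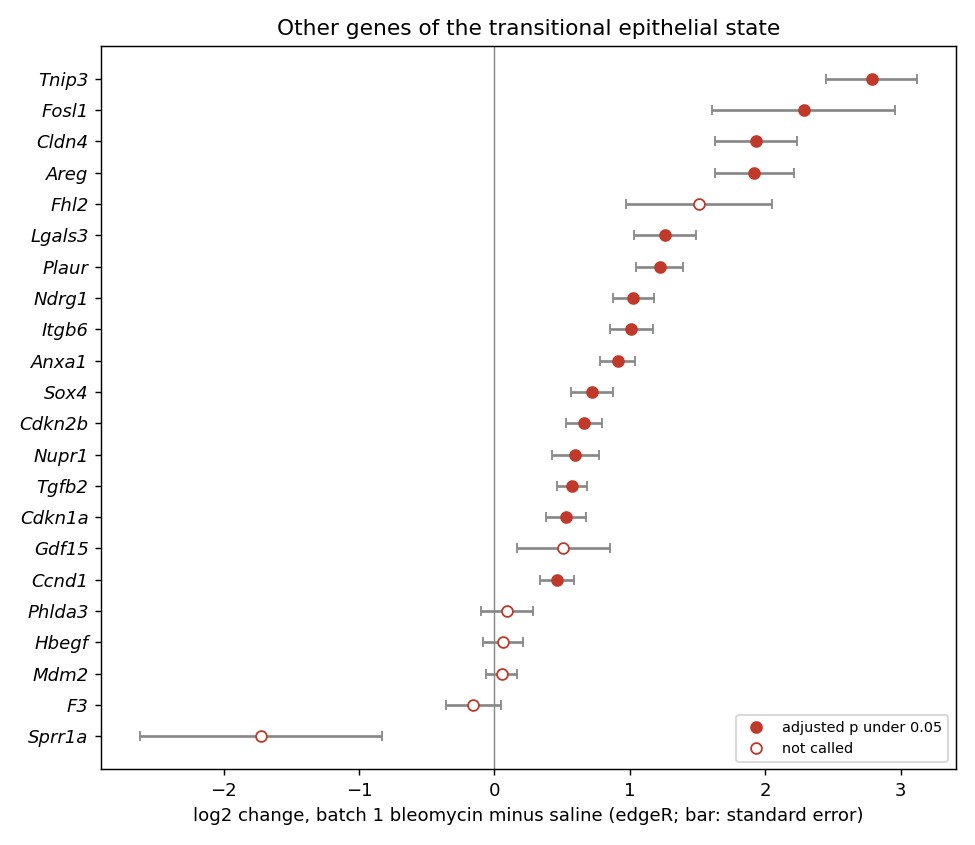
Log2 change in batch 1 bleomycin minus saline (x axis; bars, standard error) for 22 other genes of the transitional state; filled points have an adjusted p under 0.05. The 15 called genes are all above 0, and Tnip3 is highest at 2.78.

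The remaining keratins did not rise. Of 37 listed, 36 were in the table and 9 were tested. Of these, 3 fell and 0 rose in batch 1 against saline, beside 13.4% of all tested genes lower and 17.5% higher. Krt79, a keratin of sebaceous and hair follicle ducts, had 0.906, 0.486, 0.748 and 0.569 CPM in bleomycin 5 to 8, against 5.37, 4.17, 7.66, 5.28 and 3.46 CPM in saline 1 to 5. These groups did not overlap, with a log2 change of -2.94 (SE 0.35, edgeR adjusted p = 2e-05). Krt80 (-0.56) and Krt23 (-1.91) were the others. Among 12 filament partners 1 rose and 2 fell, beside the same shares of all tested genes. The linker Plec rose (0.62), and the envelope plakin Ppl (-1.65) and the junction protein Jup (-0.45) fell. Plec was not called without bleomycin 8 or without saline 2.

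General epithelial markers differed by batch. In batch 1 against saline, where 17.5% of all tested genes were higher and 13.4% lower, of 18 pan-epithelial genes 0 rose and 4 fell (Prom2, Cdh1, Esrp1 and Spint2), and their summed level was 591 to 703 CPM in batch 1 bleomycin, 663 to 1002 CPM in batch 2 bleomycin and 770 to 865 CPM in saline. In batch 2 against saline, where all 4 simple keratins rose, 5 pan-epithelial genes rose, Epcam and St14 among them, and 0 fell, beside 15.7% and 13.2% of all tested genes. Alveolar type 1 markers, at 2053 to 3558, 3013 to 3954 and 4038 to 5055 CPM in the same groups, had 5 of 10 lower in batch 1. Alveolar type 2 markers had 5 of 10 lower, club cell markers 4 of 7 and ciliated cell markers 6 of 7, and 0 of any of these lists rose in batch 1. In batch 2 against saline, 2 alveolar type 2 markers rose (Napsa and Lyz2) and 0 fell. Club cell markers had 4 of 7 lower in batch 2, as in batch 1. Alveolar type 1 markers had 3 of 10 lower in batch 2 and ciliated cell markers 3 of 7. Of the club cell, alveolar type 1 and ciliated cell markers, 0 rose in batch 2. With 1 library left out, the number lower was 1 to 6 for the pan-epithelial genes, least without bleomycin 7, and 3 to 7 for the alveolar type 2 markers, least without any of bleomycin 6, 7 and 8. With bleomycin 8 put in saline, 0 of either list was lower. Mesothelium, which also uses simple keratins, summed to 112 to 211 CPM in batch 1 bleomycin, 138 to 213 CPM in batch 2 bleomycin and 149 to 232 CPM in saline. Of its 10 markers 1 rose, Msln (1.20, edgeR adjusted p = 0.022), and 4 fell in batch 1. The number lower was 2 without any of bleomycin 1, 2, 4, 6 and 7 or saline 1 to 3, and in a fit of batch 1 libraries only. Msln was not called without bleomycin 8, saline 3 or saline 4. The part of mesothelium in the keratin values was not tested.

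Per kilobase of merged exon, Clu was first in batch 1 bleomycin (69.9 ± 18.2 CPM per kb, SD, n = 4) and batch 2 bleomycin (72.5 ± 10.5, n = 4) and 4th in saline (21.6 ± 1.37, n = 5). Krt18 followed in batch 1 bleomycin at 50.6 and was first in saline at 35.9. Krt17 was last in every group. Ranges of neighbours overlapped for most places, including Clu and Krt18 in batch 1 bleomycin, Clu and Krt8 in batch 2 bleomycin, and Krt18 and Krt19 in saline. They did not overlap for Krt19 and Krt7 in either bleomycin batch, for Krt14 and Krt17 in batch 2 bleomycin, or for Krt8 and Clu in saline. The order and the overlaps rest on the length used. By the principal transcript, a choice added after the first order was seen, Clu was first in saline too, at 41.0 CPM per kb. Krt7 was then 3rd in saline at 36.6 and Krt18 4th at 35.9. By that length the ranges of Clu and Krt18 in batch 1 bleomycin did not overlap, while those of Krt19 and Krt7 did. In saline the ranges of Clu and Krt19, next to each other in that order, overlapped.

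Among the 8 bleomycin libraries, centred within batch, the levels of the members were set against Col1a1. With 10 members, 0 passed after Benjamini-Hochberg adjustment over them, and 2 had an unadjusted p under 0.05. Sfn had the highest Pearson r, 0.905 (exact permutation within batches, p = 0.00694, adjusted 0.0694, n = 8), and a Spearman rho of 0.881 (p = 0.0104, adjusted 0.104, exact permutation). Without bleomycin 5 and bleomycin 1, farthest from the median of Col1a1, r was 0.642 (exact permutation within batches, p = 0.222, adjusted 0.611, n = 6). Leaving them out also narrows the range of Col1a1, so this fall cannot show how far the relation rests on those libraries. Krt7 had r = 0.858 (p = 0.0226, adjusted 0.113, exact permutation) and a rho of 0.833 (p = 0.0382, adjusted 0.191, exact permutation). Without bleomycin 5 and bleomycin 1 its r was 0.974 (exact permutation within batches, p = 0.0278, adjusted 0.278, n = 6). That p is the smallest that 6 libraries allow, so a member could not pass the adjustment alone, and the adjusted value decides nothing. With 4 libraries per batch, no r is given within a batch.

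The genes most like Krt8 over the 13 libraries, by the root mean square difference of log2 CPM after centring each gene, were Myh9 (0.15), C1s1 (0.17) and Mvp (0.17), of 11981 candidates. Krt19 was closest to Os9 (0.13), Krt18 (0.17) and Tmem9 (0.18). Clu was closest to Lgals3bp (0.17), Man2b1 (0.18) and C4b (0.18).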

How the data were processed

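Libraries were made with the SMARTer Stranded Total RNA-Seq v3 Pico kit from 8 ng of RNA, per the labels. The authors deposited raw counts per gene symbol; the submitters' processing notes name cutadapt 4.4, STAR 2.7.10b, featureCounts 2.0.3 and DESeq2 1.42.1 with build mm39. Which annotation release, strand setting and tool roles applied is not given in the sources used here. Of counts from 1 to 10, 78.4% to 86.1% were even, so both mates appear to be counted and counts are not independent molecules. Floors cover counting error only and treat counts as independent, so they are too low.

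Genes passing filterByExpr were TMM-scaled and tested in edgeR 4.0.16 (R 4.3.3; robust glmQLFit, glmQLFTest) with 3 groups over all 13 libraries and Benjamini-Hochberg adjustment over 20468 genes, with limma 3.58.1 (voom) and DESeq2 1.42.0 as alternatives. On simulated data, 67 of 20468 genes were changed 1.5-fold, 67 were changed 2-fold and 66 were changed 4-fold. For batch 1 bleomycin against saline, 50.7% of the 2-fold changes were recovered, with 4 false calls. In the data 30.9% of tested genes were called in this comparison, far more than were changed in the simulation. The recovered shares therefore need not hold for these data. The members and lists were chosen with earlier results of these data known. All 10 members were named, and from each list up to 4 genes by lowest p and its defining markers; further genes were named after their values were seen. The genes most like Sfn are not reported here. Lengths came from GENCODE M21 (GRCm38). Alternatives were other scalings, filters and tools, each library left out, batch 1 only, bleomycin 8 as saline, no batch term, a replicate block and a squamous covariate. Same-numbered batch 2 and saline libraries did not deviate together, so numbers were not taken as pairs.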

Additional observations from a re-analysis of the deposited data

How the results depend on the processing

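The 4 batch 1 members that rose against saline became 3 to 5 when 1 library was left out. Putting bleomycin 8 in saline, as its title says, left 0 members higher, with 399 of all genes higher and 246 lower; Krt8 was then 0.28 (adjusted p = 0.529), Krt18 0.23, Krt17 1.21 and Clu 0.86 (log2). Without a batch term Krt7 (0.43, adjusted p = 0.00734) and Krt19 (0.61, adjusted p = 0.0291) were called as well. In batch 2 against saline, 6 to 7 members rose under every alternative run, and limma-voom called 1794 genes lower. Batch 2 against batch 1 bleomycin depended on the setting: 1 member was higher, against 3 with DESeq2, 0 with limma-voom and 0 to 4 with 1 library left out. Over all genes, it gave 301 higher and 436 lower with DESeq2, 46 lower with limma-voom, 388 lower without a filter, and 53 to 411 higher and 95 to 682 lower with 1 library left out. The cause was not tested. The simple minus basal difference was 0.40 to 1.57 with 1 library left out. With a replicate block over the 4 numbers that batch 2 bleomycin and saline share, 6 members rose, as without it; correlations of same-numbered deviations were -0.349 to -0.060, and 2460 genes were higher, against 2968 without the block in the same 8 libraries. No member reversed past the threshold in any alternative. Batch 2 totals were at most 12982422 counts, and the 3 groups held 4 or 5 libraries. This limits what low genes such as Krt17 and the highly variable basal keratins can show. In the simulation 8.96% of 1.5-fold changes were recovered in batch 1, with far fewer genes changed than were called in the data.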
